A study of Mus musculus with 6 samples.

Results

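Beta-catenin (Ctnnb1), the 4 TCF/LEF factors it binds in the nucleus (Tcf7, Lef1, Tcf7l1 and Tcf7l2) and the coactivators Bcl9, Bcl9l, Pygo1 and Pygo2 were followed through 6 libraries of mouse spinal cord RNA. They are 9 of the 17245 annotated genes with at least 1 assembled exonic base, and were found by exon overlap on the same strand with the GENCODE vM21 gene models. All 9 passed the filter on low values, among 12894 genes that did, and all 9 were tested. In all, 131 assembled transcripts overlapped them, of which 114 had more than 1 exon and 59 had exactly the introns of an annotated transcript.

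The RNA came from ventral lumbar cord of C57BL/6 mice aged 5 weeks, with 3 wild-type (WT) libraries and 3 from mice without GDE2 (Gde2KO). GDE2, encoded by Gdpd5, is a surface enzyme known to cut glycosylphosphatidylinositol anchors, and the series concerns its link to canonical Wnt signalling in neurons and to oligodendrocyte maturation. The labels do not give the allele, its cell type, or the sex of the mice. P-values below measure the spread between these libraries, and the labels do not say more of how the animals were drawn.

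In canonical Wnt signalling, Wnt ligands stop the destruction of beta-catenin, which then enters the nucleus and binds TCF/LEF factors on DNA. The TCF/LEF factors repress target genes when bound to Groucho/TLE corepressors and activate them when bound to beta-catenin. BCL9 proteins bridge beta-catenin to the Pygopus proteins, whose PHD finger reads methylated histone H3. In the oligodendrocyte lineage, Tcf7l2 is known to mark cells that are starting to make myelin, and it is required for that step.

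The TCF/LEF proteins are also varied by splicing, and the exons that differed between the transcripts assembled here are shown first because the Tcf7l2 results turn on them. Coordinates are those of GRCm38 (mm10), bases run 5′ to 3′ on the strand of the gene, and the letters were read from the GENCODE vM21 transcript sequences. Tcf7l2 lies on the plus strand at chr19:55741820-55933654. Its assembled exons were numbered 1 to 17 along the gene. Exon 4 is chr19:55755014-55755082, exon 8 in its longer form is chr19:55910579-55910681, and exon 10 in its longer form is chr19:55917339-55917479. Exon 14 is chr19:55924530-55924580, exon 15 is chr19:55925977-55926049, exon 16 is chr19:55926684-55926756, and the stretch of exon 17 shown is chr19:55931434-55931513. Capitals mark the 12 bases added by the downstream donor of exon 8, the 15 bases added by the upstream acceptor of exon 10, the stop codon that exon 16 supplies after exon 15, and the stop codon in exon 17 that is read when exons 15 and 16 are both left out.
Tcf7l2 exon 4: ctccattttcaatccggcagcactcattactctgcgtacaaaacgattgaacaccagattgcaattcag
Tcf7l2 exon 8: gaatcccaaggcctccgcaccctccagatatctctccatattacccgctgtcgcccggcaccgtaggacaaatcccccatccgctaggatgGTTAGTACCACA
Tcf7l2 exon 10: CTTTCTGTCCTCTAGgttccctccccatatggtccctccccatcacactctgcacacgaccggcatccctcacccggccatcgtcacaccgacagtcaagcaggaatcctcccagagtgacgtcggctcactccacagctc
Tcf7l2 exon 14: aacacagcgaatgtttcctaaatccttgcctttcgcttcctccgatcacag
Tcf7l2 exon 15: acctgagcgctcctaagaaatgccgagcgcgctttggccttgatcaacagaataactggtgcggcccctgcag
Tcf7l2 exon 16: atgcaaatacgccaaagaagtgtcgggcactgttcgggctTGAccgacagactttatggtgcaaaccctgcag
Tcf7l2 exon 17, start: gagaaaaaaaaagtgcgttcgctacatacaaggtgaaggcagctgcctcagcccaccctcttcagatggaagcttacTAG

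The cassette exons of Lef1 and Tcf7l1 that differed between the groups without overlap are shown with them. The Lef1 exon has 84 bases at chr3:131191023-131191106 on the plus strand, and the Tcf7l1 exon has 42 bases at chr6:72648801-72648842 on the minus strand. Every base of both is annotated as coding, and both lengths are multiples of 3, so their inclusion keeps the reading frame.
Lef1 exon of 84 bases: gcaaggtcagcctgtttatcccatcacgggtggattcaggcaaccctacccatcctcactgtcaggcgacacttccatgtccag
Tcf7l1 exon of 42 bases: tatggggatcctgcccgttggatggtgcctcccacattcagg

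The libraries were checked before the members were compared. Each file held between 31899 and 33791 assembled transcripts, with a relative depth of 0.91 to 1.137. Gdpd5 was at 5.38, 6.54 and 5.95 FPKM (fragments per kilobase of transcript, scaled to the mapped total) in the WT libraries, listed here and throughout in replicate order. In Gde2KO it was at 1.24, 1.197 and 0.946 FPKM, a fold of 0.202 (95% interval 0.162 to 0.253, limma adjusted p = 0.00526), so the targeted gene was low in each library labelled Gde2KO. Gde2KO replicate 3 stood apart in its assembly, with an annotated intron chain in 56.2% of its multi-exon transcripts against 49.3% to 49.8% in the other libraries, and it was the lowest library for 25.4% of all genes tested. Gde2KO replicate 1 alone held the Y-linked gene Ddx3y, at 21.5 FPKM. It alone had Xist at 0 FPKM, against 1.21 to 2.58 elsewhere, so the Gde2KO libraries were not alike in sex-linked genes. Gde2KO replicate 1 was also low in meningeal markers, whose summed level was 43.9 FPKM there against 85.0 to 112 elsewhere. Markers of the labelled tissue were present, with all 11 general neuron, 7 motor neuron and 14 mature oligodendrocyte markers above the filter. Of 12 superficial dorsal horn markers, 7 were tested. Their mean log2 difference from the WT mean was 0.20, -0.13 and -0.06 in WT and 0.63, -0.12 and -0.70 in Gde2KO. Schwann cell markers summed to 129.6 FPKM in Gde2KO replicate 1, against 214.5 to 357 elsewhere. The part of the dissection in these values was not tested.

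Beta-catenin RNA was far more abundant than that of any of its nuclear partners, and no member passed the test between the genotypes. On the level scale, which is FPKM per base averaged over a gene's exons and can be compared between genes, Ctnnb1 was at 102.6 ± 3.91 in WT (SD, n = 3). Pygo2 followed at 11.3 ± 0.541, then Bcl9l at 6.43 ± 0.298, Bcl9 at 5.15 ± 0.167 and Pygo1 at 4.99 ± 0.0728. The TCF/LEF factors were the lowest members, with Tcf7l1 at 2.31 ± 0.273, Lef1 at 2.12 ± 0.497, Tcf7l2 at 1.66 ± 0.161 and Tcf7 at 1.22 ± 0.0846. In this order the WT values of Bcl9 and Pygo1 overlapped, as did those of Tcf7l1 and Lef1, while the other neighbours did not overlap. The order of Tcf7l1, Lef1 and Tcf7l2 depended on the bases counted. Over coding bases alone, on the deposited scale, Lef1 was at 2.53 ± 0.657 in WT, Tcf7l1 at 2.43 ± 0.181 and Tcf7l2 at 2.16 ± 0.412. The WT values of these genes overlapped there. Of the 9 members, 0 had an adjusted p under 0.05 in limma with Benjamini-Hochberg adjustment over all genes, against 0.116% of all genes tested. At an unadjusted p under 0.05 the count was 1 of 9, against 3.91% of all genes.

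Ctnnb1 and Pygo2 had estimates above 0 and the other 7 members had estimates below 0, where 49.9% of all genes tested were below 0. Bcl9, Bcl9l and Tcf7 were lower in all 3 Gde2KO libraries than in any WT library, and 5.79% of all genes were. Only after scaling was Ctnnb1 higher in all 3 Gde2KO libraries than in any WT library, as 5.06% of all genes were. On the deposited scale its groups overlapped. Over coding bases alone they overlapped as well, at 116.3, 113.2 and 99.4 FPKM in WT and 113.7, 108 and 123.7 in Gde2KO on the deposited scale. Gde2KO replicate 3 was the lowest library for 6 of the 9 members, namely Lef1, Tcf7l1, Tcf7l2, Bcl9, Bcl9l and Pygo1.

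**Figure D1:**
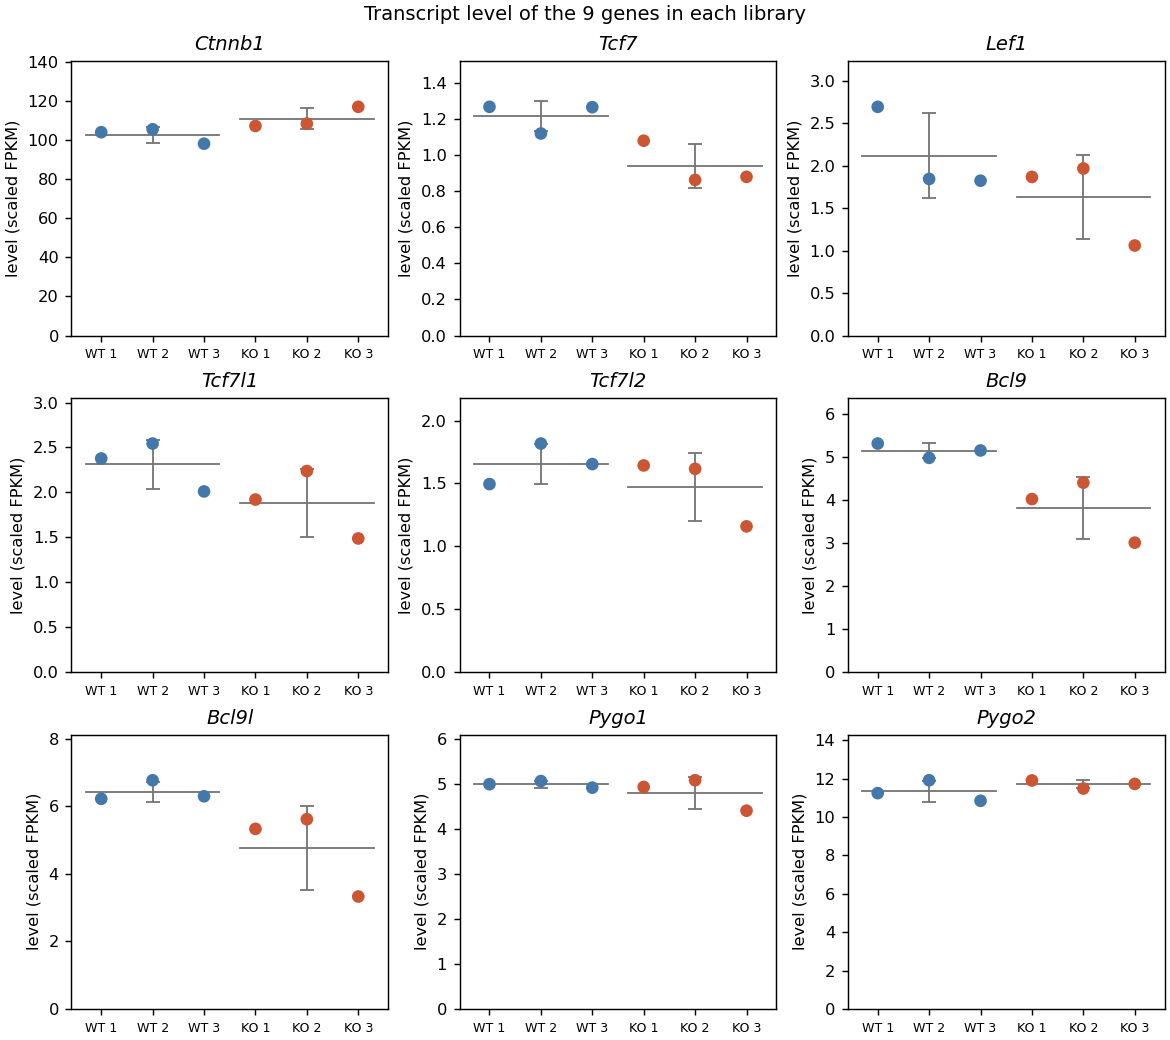
Level of each of the 9 genes (y axis, FPKM after scaling, starting at 0) in the 3 WT libraries (blue) and the 3 Gde2KO libraries (KO, red), with the group mean and SD in grey. Bcl9, Bcl9l and Tcf7 have all 3 red points below the blue ones, and Gde2KO replicate 3 is the lowest point for 6 genes.

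Ctnnb1 encodes beta-catenin, which acts both in Wnt signalling and in cadherin adhesion. Its gene is on the plus strand at chr9:120929216-120960507. Its level was 104.1, 105.6 and 98.2 FPKM in WT and 107.3, 108.5 and 117.1 in Gde2KO. The lowest and the highest of the 6 values were WT replicate 3 and Gde2KO replicate 3. The fold was 1.08 (95% interval 0.96 to 1.22, limma adjusted p = 0.882), and its estimate was above 0 with each library left out. A transcript with the 15 exons of the annotated model ENSMUST00000007130.14, reading 781 codons from the annotated start to the stop, was assembled in 5 of the 6 libraries. WT replicate 3 was the exception: both of its transcripts kept an intron within an exon of 364 bases, at chr9:120957517-120957880, and their frame closed after 693 codons. The shorter chains that started downstream took 25.6% of the Ctnnb1 FPKM in WT replicate 1, 17.5% in WT replicate 3 and 23.9% in Gde2KO replicate 1, and were not assembled in the others.

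Tcf7, which encodes TCF1, was the least abundant member. It lies on the minus strand at chr11:52252371-52283014. Its level was 1.27, 1.12 and 1.27 FPKM in WT and 1.08, 0.864 and 0.88 in Gde2KO. Tcf7 passed the filter of a mean of 1 FPKM only through its WT libraries. On the deposited scale its mean was 1.24 FPKM in WT and 0.936 in Gde2KO. All 3 Gde2KO values were below all WT values, with the lowest in replicate 2, not in replicate 3. The fold was 0.788 (95% interval 0.606 to 1.02), with an unadjusted p of 0.0671 and a limma adjusted p of 0.882. Over coding bases alone the log2 difference was -0.56, with an unadjusted p of 0.00717 and a limma adjusted p of 0.901. Added over transcripts instead of per base, it was 0.07. That sum counts each piece of a gene assembled in pieces once. A Tcf7 chain of 10 exons was assembled in WT replicates 1 and 2, while WT replicate 3 and all 3 Gde2KO libraries held only pieces of 2 to 7 exons, with 1 single-exon transcript in Gde2KO replicate 1. A cassette exon of 93 bases at chr11:52258853-52258945 lengthened the frame from 272 to 303 codons and was in 18.7% of the Tcf7 FPKM in WT replicate 2 that bore on it. It was skipped in WT replicate 1 and in Gde2KO replicate 1, and its inclusion could not be read in the remaining libraries. In WT replicate 3, however, Tcf7 transcripts of 1.25 FPKM in sum began in an exon with the same donor end, at position 52258853.

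Lef1 had the largest WT SD relative to its mean among the 9 members. It lies on the plus strand at chr3:131110471-131224356. Its level was 2.70, 1.85 and 1.83 FPKM in WT and 1.87, 1.97 and 1.06 in Gde2KO. WT replicate 1 was the high library and Gde2KO replicate 3 the low one, and the other 4 lay between 1.83 and 1.97. The fold was 0.767 (95% interval 0.477 to 1.24, limma adjusted p = 0.882), and without Gde2KO replicate 3 the log2 difference went from -0.38 to -0.12. Of the bases counted for Lef1, 70.9% were assembled in WT replicate 2, against 96.85% to 99.69% elsewhere. Counted bases that were not assembled lower the level. Over coding bases alone, on the deposited scale, it was 3.126, 2.631 and 1.825 FPKM in WT and 2.516, 1.957 and 1.08 in Gde2KO. There the 4 middle libraries did not lie close together. Lef1 is known from endothelial cells of the central nervous system. Of the 12 endothelial markers tested, 9 had estimates below 0 and 3 above, and 0 passed the test. Their median log2 difference was -0.16, against 0.00 for all genes tested. With no overlap, 3 were lower in Gde2KO and 2 higher, against 5.79% and 5.06% of all genes tested. The smallest p-value of the list belonged to Sox18, which was higher in Gde2KO, with a fold of 1.43 (limma adjusted p = 0.243). Kdr and Emcn followed and were lower, with folds of 0.663 and 0.793 (limma adjusted p = 0.882 each). The summed level of the 12 markers, on the deposited scale, was 106.6, 92.6 and 89.8 FPKM in WT and 90.0, 87.3 and 87.2 in Gde2KO. None of the 12 was at 0, and their part in the Lef1 values was not tested.

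The Lef1 exon of 84 bases was included less in each Gde2KO library than in any WT library. Its inclusion was 100%, 75.7% and 100% in WT and 44.6%, 72.6% and 60.9% in Gde2KO, as a share of the FPKM of transcripts that include or skip it. The groups were separated only narrowly, between WT replicate 2 and Gde2KO replicate 2. The log2 odds of inclusion differed by -3.10 (95% interval -5.92 to -0.27), with an unadjusted p of 0.037 and a limma adjusted p of 0.913 over the 3657 cassette exons tested. Leaving out a library moved it between -4.14 and -2.39, and its size depended on the offset, at -1.24 with 1 FPKM and -5.25 with 0.01 FPKM (limma adjusted p = 0.919 and 0.91). The annotated chain with the exon, ENSMUST00000029611.13, reads 397 codons, and the one without it, ENSMUST00000066849.12, reads 369. Gde2KO replicate 1 had neither whole: its included form stopped after 8 exons, and its skipping form began at a different first exon, downstream of the one used in the other libraries. Another cassette exon, of 41 bases at chr3:131204933-131204973, was skipped only in 1 transcript of WT replicate 3, where inclusion was 83.6%, and that exon was not tested.

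Tcf7l1 encodes TCF3, known mainly as a repressor. It lies on the minus strand at chr6:72626378-72789254. Its level was 2.38, 2.54 and 2.01 FPKM in WT and 1.92, 2.24 and 1.49 in Gde2KO. The groups overlapped through WT replicate 3 and Gde2KO replicate 2. The fold was 0.816 (95% interval 0.608 to 1.1, limma adjusted p = 0.882), and the log2 difference of -0.29 became -0.14 without Gde2KO replicate 3. Tcf7l1 was the TCF/LEF gene with the plainest assembly, as each of the 6 libraries held the same 2 annotated chains, ENSMUST00000069536.11 with 12 exons and 585 codons and ENSMUST00000114053.8 with 13 exons and 599 codons. They differ by the exon of 42 bases. Its inclusion was 33.6%, 41.0% and 47.6% in WT and 32.2%, 23.3% and 28.6% in Gde2KO. The groups did not overlap, with WT replicate 1 and Gde2KO replicate 1 close to each other. The log2 odds differed by -0.71 (95% interval -2.08 to 0.65, limma adjusted p = 0.913). In both genes the exon was lower in Gde2KO, which held with no overlap for 2 of the 8 tested exons of members and for 4.02% of all cassette exons tested. Of the 8 exons, 0 were higher in Gde2KO with no overlap, against 3.77% of all.

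**Figure D2:**
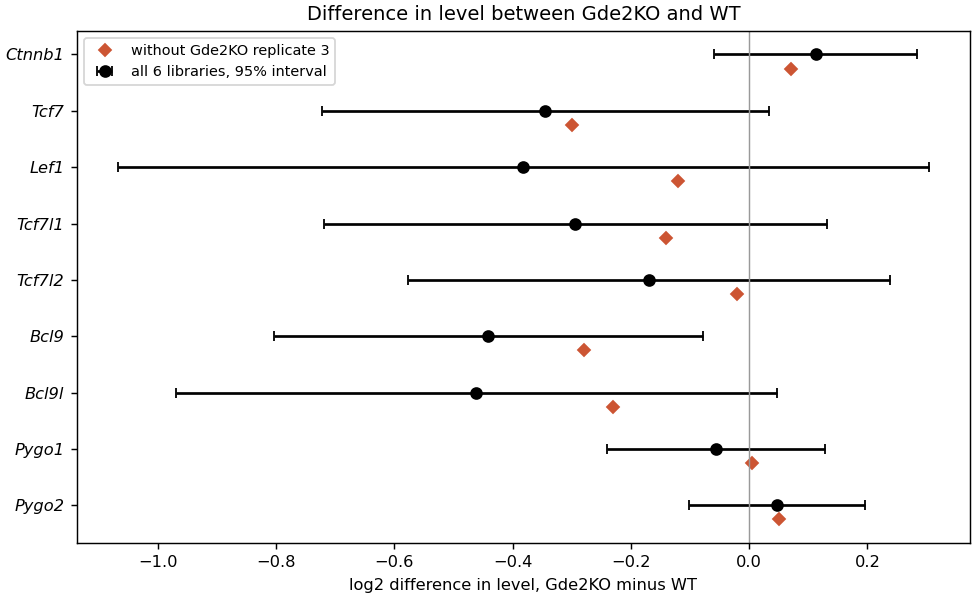
Log2 difference in level, Gde2KO minus WT (x axis), of each gene over all 6 libraries with its 95% interval (black) and without Gde2KO replicate 3 (red diamonds). Bcl9 is the gene whose interval lies below 0, and its estimate goes from -0.44 to -0.28 without that library.

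Tcf7l2 encodes TCF4, the TCF/LEF factor of newly formed oligodendrocytes. Its level was 1.495, 1.82 and 1.65 FPKM in WT and 1.64, 1.62 and 1.16 in Gde2KO. Gde2KO replicate 3 was low, and Gde2KO replicates 1 and 2 lay within the WT values. The fold was 0.889 (95% interval 0.67 to 1.18, limma adjusted p = 0.882), and the log2 difference of -0.17 became -0.02 without Gde2KO replicate 3. Added over transcripts, which counts every overlapping piece, it was -0.62 (unadjusted p = 0.0482, limma adjusted p = 0.921). Of the bases counted for Tcf7l2, 87.55%, 81.58% and 86.17% were assembled in WT and 83.84%, 98.25% and 97.03% in Gde2KO. Counted bases that were not assembled lower the level. Over coding bases alone, on the deposited scale, it was 1.858, 2.629 and 1.99 FPKM in WT and 2.319, 2.401 and 1.274 in Gde2KO. That log2 difference was -0.11 (unadjusted p = 0.708, limma adjusted p = 0.955). Of the 12 markers of newly formed oligodendrocytes, 11 were tested, of which 6 had estimates above 0 and 5 below, with 0 passing the test. With no overlap, 1 was higher in Gde2KO and 0 lower, against 5.06% and 5.79% of all genes tested. On the deposited scale the summed level of the list was 535.8 to 676.7 FPKM in WT and 479 to 637.4 in Gde2KO, with Gde2KO replicate 3 again the lowest. Bcas1 alone was 264.3 to 291.8 FPKM of that sum in WT and 214.6 to 269.8 in Gde2KO. Enpp6, a defining marker of this stage, was at 13.8, 18.1 and 17.8 FPKM in WT and 18.9, 19.4 and 18.9 in Gde2KO after scaling, without overlap and with a fold of 1.16 (limma adjusted p = 0.882). Gpr17, another, had a fold of 1.16 with overlapping groups (limma adjusted p = 0.882). Bcas1 went the other way, at 281.2, 259.6 and 290.5 FPKM in WT and 270.6, 271.8 and 214.4 in Gde2KO, with overlap and a fold of 0.906 (limma adjusted p = 0.882). The part of these cells in the Tcf7l2 values was not tested, and in bulk tissue fewer cells and less RNA per cell cannot be told apart.

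Ash1l and Dot1l were among the 3 genes whose levels ran most like that of Tcf7l2 over the 6 libraries, of 12893 compared. Pearson's r of the log2 levels was 0.997 and 0.994 and Spearman's rho 0.943 and 0.829, given as a description only. Both shared with Tcf7l2 their lowest value in Gde2KO replicate 3. There Ash1l was at 7.71 FPKM, with 8.38 to 8.83 elsewhere, and Dot1l was at 2.52, with 3.31 to 4.09 elsewhere.

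Few Tcf7l2 exon chains were shared between libraries. The 6 libraries held 20 multi-exon Tcf7l2 transcripts with 17 different intron chains, and only 2 chains were assembled in more than 1 library. A chain equal to the annotated ENSMUST00000111657.10, with exons 14 and 15 and the longer exon 8, was found in WT replicate 2 and in Gde2KO replicates 1 and 2, at 1.63, 0.964 and 1.25 FPKM. A chain equal to ENSMUST00000061496.16, which has exon 14 without exon 15, was found in Gde2KO replicates 1 and 3 at 1.06 and 0.799 FPKM. The chains of WT replicates 1 and 3 matched no annotated transcript. A further 14 single-exon transcripts overlapped the gene, 10 of them within its last exon.

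**Figure D3:**
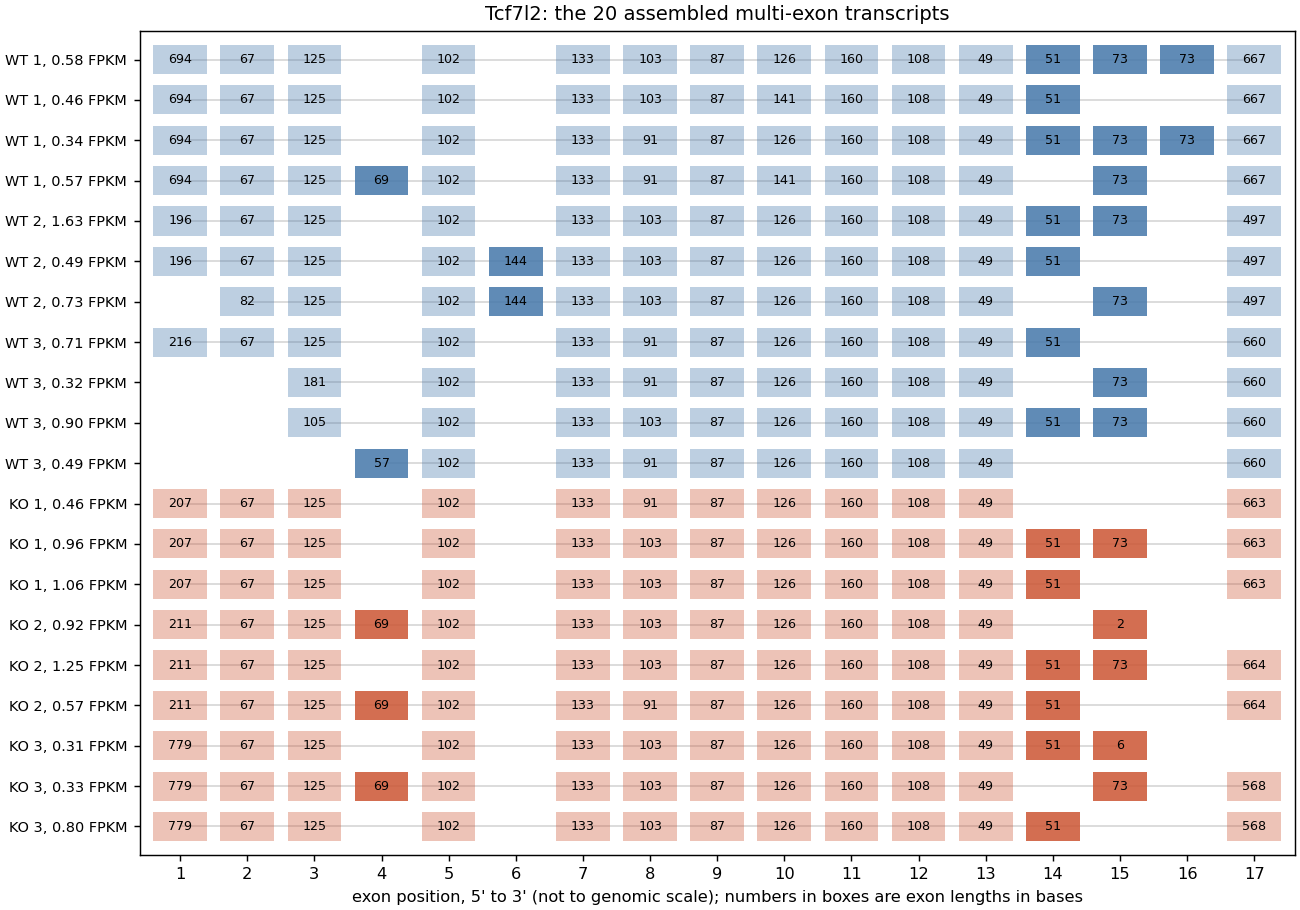
The 20 assembled multi-exon Tcf7l2 transcripts, 1 per row with its library and FPKM, against exon position along the gene (x axis, not to genomic scale); blue rows are WT, red rows are Gde2KO (KO), boxes give exon lengths in bases, and darker boxes are the cassette exons. Exons 5 and 7 to 13 are in all rows, while exons 4, 6 and 14 to 16 come and go within a library.

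The core of the gene was constant. Exons 5, 7, 9, 11, 12 and 13 had the same ends in all 20 transcripts, and exons 8 and 10 were always present in their longer or shorter form. In TCF/LEF genes the 5′ exons encode the part that binds beta-catenin, and later exons encode the HMG box, the DNA-binding domain. The transcripts of 5 libraries began in exon 1 or, in 1 transcript of WT replicate 2, in exon 2. In WT replicate 3, 3 of the 4 transcripts began only in exon 3 or 4. RefSeq (GRCm38.p6) lists a downstream Tcf7l2 start at position 55895321 of chromosome 19, which would leave out the 5′ exons, and 0 of the multi-exon transcripts began within 300 bases of it. Likewise 0 Lef1 transcripts began within 300 bases of the downstream RefSeq start at position 131156294 of chromosome 3, while 10 began near the upstream one. An assembly lists only what it could build, so this gives no limit on the level of a rare short form.

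Exon 4, which adds 69 bases near the 5′ end, was included in 1 WT library and in 2 Gde2KO libraries. Its inclusion was 29.3%, 0% and 0% in WT and 0%, 54.4% and 23.0% in Gde2KO. WT replicate 3 had in addition a transcript of 0.495 FPKM that began within exon 4. The log2 odds differed by 1.47 (95% interval -2.81 to 5.76, limma adjusted p = 0.913), an interval that leaves the direction unset. Exon 6, of 144 bases, was assembled only in WT replicate 2, at 42.8%, and is not annotated as coding. Its log2 odds differed by -1.35 (limma adjusted p = 0.913). With offsets of 1 and 0.01 FPKM this was -0.47 and -2.43 (limma adjusted p = 0.924 and 0.91). An exon seen in a single library, with odds set by the offset elsewhere, cannot decide a difference between the genotypes.

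The choice of the donor of exon 8 was mixed in 4 of the 6 libraries. The longer form, with the 12 bases in capitals, took 53.2%, 100% and 37.1% of the Tcf7l2 FPKM in WT and 81.6%, 79.3% and 100% in Gde2KO. All Gde2KO libraries lay above WT replicates 1 and 3 and none lay above WT replicate 2, so the groups overlapped. The longer exon 10, with its 15 bases, was assembled only in WT replicate 1, at 52.9%. Neither site was tested. Both insertions have a length divisible by 3.

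The exons before the last decide the C terminus. With exon 15 and without exon 16, the frame ran to a stop at position 55931855 in exon 17 and held 598 to 605 codons in the 5 transcripts with an annotated start. With neither, it stopped at position 55931511, after 438 to 507 codons. With both, it stopped in exon 16 after 467 or 471 codons. Exon 15 encodes much of the C-clamp, an auxiliary DNA-binding domain known from the long, or E-type, TCF proteins.

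Exon 15 was included at 76.4%, 82.7% and 50.2% in WT and at 38.8%, 68.7% and 29.2% in Gde2KO. Gde2KO replicate 2 lay above WT replicate 3, so the groups overlapped. Its mean was 69.8% ± 17.3 (SD, n = 3) for WT and 45.6% ± 20.6 (SD, n = 3) for Gde2KO. The log2 odds differed by -1.41 (95% interval -3.67 to 0.85, unadjusted p = 0.173, limma adjusted p = 0.913). Gde2KO replicates 2 and 3 each had a transcript that ended 2 or 6 bases into exon 15, at 0.924 and 0.307 FPKM, and these were counted neither as inclusion nor as skipping. Counted as inclusion, a choice made after seeing the data, they raised Gde2KO replicates 2 and 3 to 79.3% and 44.3%, and the difference of the means went from -24.2 to -15.6 percentage points.

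Exon 14 was the most even of the Tcf7l2 cassette exons. It was included at 70.7%, 74.5% and 66.5% in WT and at 81.6%, 66.3% and 77.0% in Gde2KO. The Gde2KO values spanned all the WT values. The log2 odds differed by 0.28 (95% interval -1.13 to 1.70, limma adjusted p = 0.973). Exon 16 was assembled only in WT replicate 1, at 47.1%, always together with exon 15 (limma adjusted p = 0.937).

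**Figure D4:**
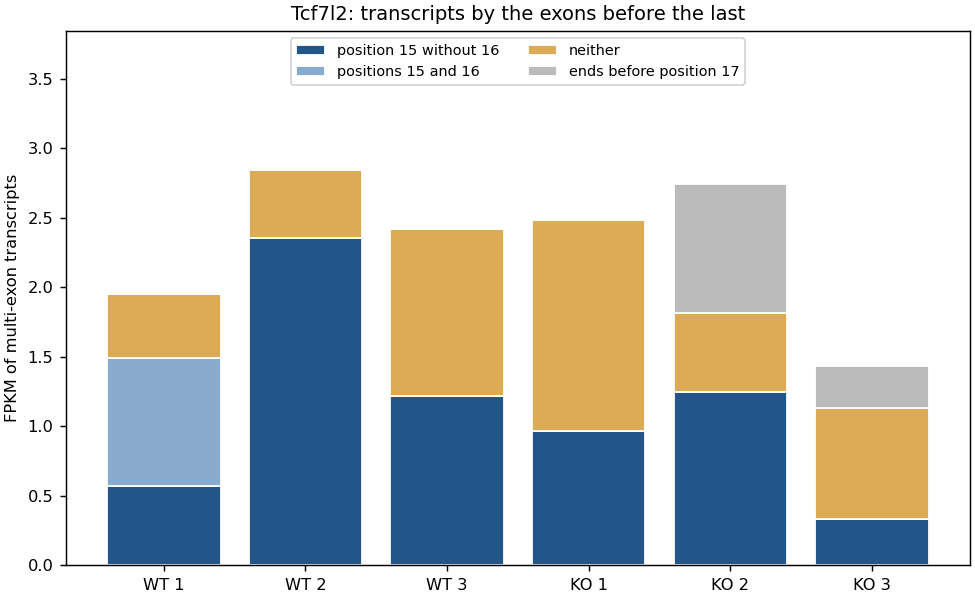
FPKM of the multi-exon Tcf7l2 transcripts in each library (y axis, stacked from 0), split by whether they hold exon 15 without exon 16, both, neither, or end before exon 17. The neither class is the larger one in Gde2KO replicates 1 and 3, and exon 16 appears in WT replicate 1 alone.

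Split by C terminus, the form with exon 15 alone made up 29.3%, 82.7% and 50.2% of the multi-exon Tcf7l2 FPKM in WT and 38.8%, 45.6% and 23.0% in Gde2KO. The form with neither exon made up 23.6%, 17.3% and 49.8% in WT and 61.2%, 20.7% and 55.7% in Gde2KO. In both forms the genotypes overlapped. The form ending in exon 16 was 47.1% of WT replicate 1, and the transcripts ending before exon 17 were 33.7% of Gde2KO replicate 2 and 21.4% of Gde2KO replicate 3. These shares rest on 1 or 2 transcripts each, of 0.307 to 1.63 FPKM.

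**Figure D5:**
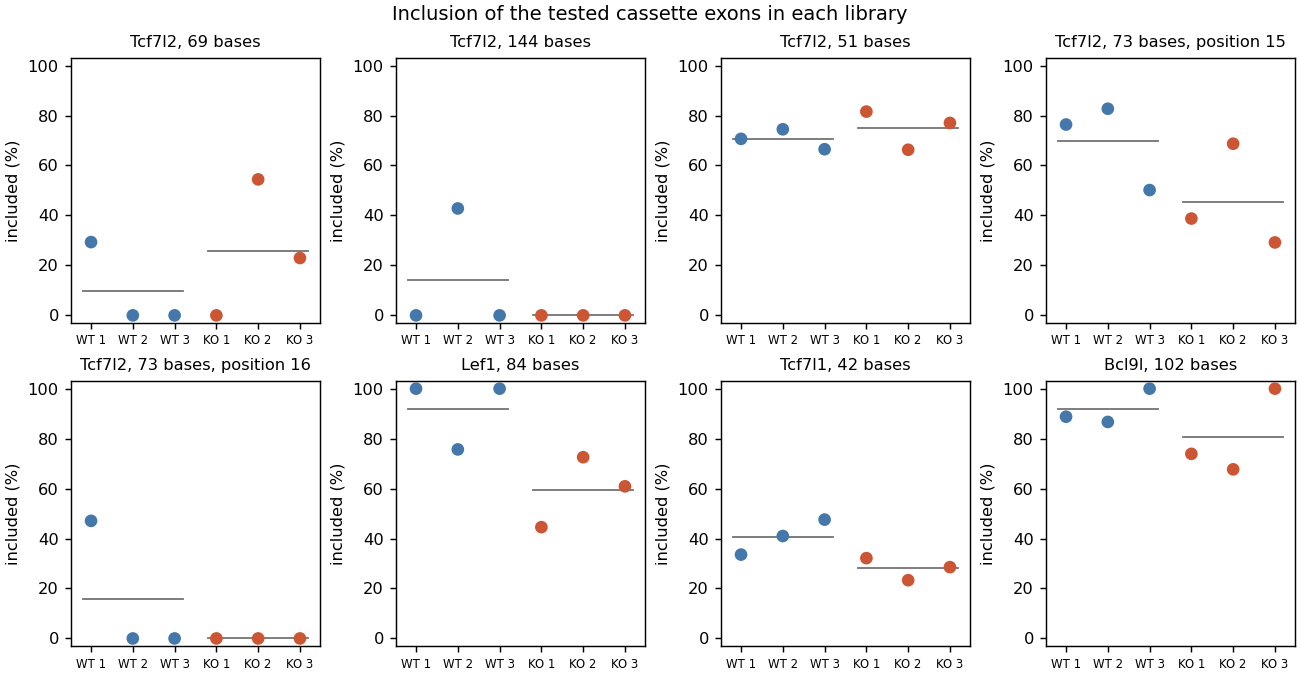
Inclusion (y axis, percent of the FPKM of transcripts that include or skip the exon) of the 8 tested cassette exons in the 3 WT (blue) and 3 Gde2KO (KO, red) libraries, with group means as grey lines. The groups do not overlap for the Lef1 exon of 84 bases and the Tcf7l1 exon of 42 bases.

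Across the 8 tested cassette exons of the members, 0 had an adjusted p under 0.05 in limma, against 0.164% of all cassette exons tested. At an unadjusted p under 0.05 the count was 1 of 8, the Lef1 exon, against 2.49%. On simulated data, with normal noise of the SD of each exon between libraries, that test found 0 of 50 exons changed by 2 log2 units and 17 of 50 changed by 6. The simulation did not copy exons at 0% or 100%, whose log odds are bounded by the offset, as several of these are.

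BCL9 and BCL9L are the adaptors between beta-catenin and Pygopus, and they gave the lowest folds among the coactivators. Bcl9 lies on the minus strand at chr3:97203662-97297917. Its level was 5.32, 4.98 and 5.16 FPKM in WT and 4.03, 4.41 and 3.01 in Gde2KO. The Gde2KO libraries were all below the WT libraries, which lay close together. The fold was 0.737 (95% interval 0.573 to 0.948), with an unadjusted p of 0.0253 and a limma adjusted p of 0.882. Without Gde2KO replicate 3 the log2 difference went from -0.44 to -0.28, with an unadjusted p of 0.0134 and a limma adjusted p of 0.991.

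Bcl9l lies on the plus strand at chr9:44482825-44511896. Its level was 6.22, 6.77 and 6.30 FPKM in WT and 5.33, 5.62 and 3.33 in Gde2KO. Again every Gde2KO library was below every WT library, with replicate 3 far below the others. The fold was 0.726 (95% interval 0.511 to 1.03, limma adjusted p = 0.882), and the log2 difference went from -0.46 to -0.23 without Gde2KO replicate 3.

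The transcripts of both genes differed mainly at the 5′ end. Bcl9 had 10 exons in all 16 transcripts, with 5 different first exons. The most upstream of them took 53.8%, 41.1% and 27.7% of the Bcl9 FPKM in WT and 35.97%, 36.9% and 100% in Gde2KO, where replicate 3 held a single transcript. A donor choice in Bcl9 gives a coding exon of 317 or of 95 bases, and the longer form took 77.8%, 77.8% and 72.3% in WT and 77.1%, 72.6% and 100% in Gde2KO, so the groups overlapped. For Bcl9l, transcripts beginning at the exon of the annotated ENSMUST00000074989.6 took 66.4%, 76.1% and 67.6% in WT and 65.8% in Gde2KO replicate 3, and were not assembled in Gde2KO replicates 1 and 2, where all transcripts began upstream. The Bcl9l exon of 102 bases, which holds the annotated start codon, was included at 88.8%, 86.7% and 100% in WT and 73.9%, 67.7% and 100% in Gde2KO (limma adjusted p = 0.913). The groups overlapped through Gde2KO replicate 3. Frames of 1457 codons without it and 1494 codons with it were read from the annotated starts. The Bcl9l exon of 57 bases at chr9:44489655-44489711, which is not coding, was not tested.

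The Pygopus genes had the smallest log2 differences of the 9 members in size. Pygo1 lies on the plus strand at chr9:72925645-72952181. Its level was 4.99, 5.06 and 4.91 FPKM in WT and 4.93, 5.08 and 4.40 in Gde2KO. Only Gde2KO replicate 3 lay outside the WT values by more than 0.1 FPKM. The fold was 0.962 (95% interval 0.847 to 1.09, limma adjusted p = 0.884). The same 3-exon chain was the one Pygo1 transcript of all 6 libraries.

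Pygo2 lies on the plus strand at chr3:89430214-89435128. Its level was 11.25, 11.9 and 10.85 FPKM in WT and 11.9, 11.5 and 11.7 in Gde2KO. The Gde2KO values lay within the WT values. The fold was 1.03 (95% interval 0.932 to 1.15, limma adjusted p = 0.884). Every library held the chain of ENSMUST00000060061.10, which reads 405 codons, and another annotated chain, ENSMUST00000136573.7 or ENSMUST00000125830.1, which reads 368. The longer frame took 87.2%, 76.7% and 53.9% of the Pygo2 FPKM in WT and 84.4%, 58.0% and 66.6% in Gde2KO, so the groups overlapped.

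The genes that act with the members were taken from lists, and 0 genes of these lists passed the test. Of 15 corepressors and nuclear antagonists tested, 9 had estimates above 0 and 6 below, with a median log2 difference of 0.01. The smallest p-values belonged to Cby1, which encodes Chibby, Hbp1 and Tle4, with folds of 0.904, 1.08 and 0.909 (limma adjusted p = 0.882 each). Of 14 chromatin coactivators, 7 had estimates above 0 and 7 below, with a median of 0.00, and Kmt2d, Kmt2a and Crebbp led with folds of 0.878, 0.892 and 0.906 (limma adjusted p = 0.882 each).

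Beta-catenin's partners at the membrane and in its turnover also gave 0 calls. Of 9 cadherin and catenin genes tested, 3 had estimates above 0 and 6 below, where 49.9% of all genes tested were below, with a median of -0.12. With no overlap, 2 were lower in Gde2KO and 0 higher, against 5.79% and 5.06% of all genes tested. N-cadherin (Cdh2) was at 23.7, 25.7 and 24.2 FPKM in WT and 20.9, 20.3 and 22.1 in Gde2KO, with no overlap and a fold of 0.86 (limma adjusted p = 0.882). Cdh5 and Cdh11 had folds of 0.847 and 0.896. Of 14 genes of the destruction complex and of beta-catenin turnover, 4 had estimates above 0 and 10 below, with a median of -0.06. Among these, 1 was lower in Gde2KO with no overlap and 0 higher.

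Btrc, which encodes the ubiquitin ligase subunit that recognises phosphorylated beta-catenin, had the smallest p of these lists. It was at 19.0, 19.2 and 19.3 FPKM in WT and 14.6, 14.7 and 15 in Gde2KO. The groups were tight and did not overlap, and Gde2KO replicate 3 was not the lowest. The fold was 0.771 (95% interval 0.708 to 0.839), with an unadjusted p of 0.000342 and a limma adjusted p of 0.184. Its relative Fbxw11 had a fold of 0.908, and Csnk1e had a fold of 0.936 (limma adjusted p = 0.882 each).

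Among known Wnt target genes, 15 of 19 were tested, of which 4 had estimates above 0 and 11 below, with a median log2 difference of -0.19 against 0.00 for all genes. Bambi, Tnfrsf19 and Sox9 had the smallest p-values, with folds of 0.805, 0.896 and 0.724 (limma adjusted p = 0.882 each). Bambi and Tnfrsf19 did not overlap between the groups and Sox9 did. Of the 15 tested, 3 were lower in Gde2KO with no overlap and 0 higher, against 5.79% and 5.06% of all genes tested. On the deposited scale the summed level of the list was 160.8, 158.8 and 169.7 FPKM in WT and 150.4, 150.9 and 126.8 in Gde2KO, with replicate 3 the lowest. Id2 alone was 76.6, 78.7 and 84.0 FPKM of that sum in WT and 75.8, 72.2 and 55.3 in Gde2KO.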

How the data were processed

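The deposited files are 6 transcript assemblies, 1 per library. Per the submitters' processing notes, FastQC, TopHat2 2.1.1, Cufflinks 2.2.1 and Cuffdiff 2.2.1 were used with mm10. FPKM values and other attributes of each transcript were made by the authors and are written in the deposited files in a single text column. Counts of reads are not used here, and depth is known only in relative terms. Transcripts under 200 bases were left out. A gene's level is the FPKM summed at each exonic base, averaged over bases assembled in at least 3 libraries and shared with no other gene on the strand, then divided by median-of-ratios factors of 0.989 to 1.04. Genes with at least 200 such bases and a mean of at least 1 FPKM were tested with limma 3.58.1 (R 4.3.3) on log2(FPKM + 0.1), with trend and robust moderation, two-sided, with Benjamini-Hochberg adjustment. Folds are on that scale, which understates changes of low genes. An exact permutation test of 3 against 3 cannot go below p = 0.1. Inclusion of a cassette exon was tested likewise, without the trend, as log2 odds with an offset of 0.1 FPKM, over exons with at least 1 FPKM in every library and a mean inclusion of 5% to 95%. RefSeq start sites are those of GRCm38.p6. Reading frames run from the most 5′ annotated start codon in a chain. Transcript FPKM, inclusion and list sums are on the deposited scale. On simulated gene levels (12894 genes), 34 of 50 changes of 1 log2 unit and 46 of 50 of 2 units were found. Named genes are the members, Gdpd5, genes of 18 lists (192 genes, all found in the annotation) with up to 3 of smallest p per list, and the 3 genes most like Tcf7l2, of which 1 is not reported here. The members and lists were chosen with earlier results of these data known.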

Additional observations from a re-analysis of the deposited data

Results flagged for a closer look

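On the strand opposite Ctnnb1, a single-exon transcript was assembled at the 3′ end of the gene in Gde2KO replicate 3, at 74.5 FPKM (authors' bounds 65.8 to 83.1), over chr9:120960269-120960501. It was noted because it lies outside the measurements compared and above the WT libraries, where a transcript of 14.3 FPKM was assembled in replicate 2 (chr9:120960215-120960506) and none in the others. Ulk4 is annotated on that strand. Their FPKM was not added to the level of Ctnnb1. In the same libraries, however, the last Ctnnb1 exon was shorter, at 828 bases in WT replicate 2 and 823 in Gde2KO replicate 3, against 999 to 1003 elsewhere. Of the bases counted for Ctnnb1, 94.98% and 94.83% were assembled there, against 99.77% to 99.97% elsewhere. Counted bases that were not assembled lower the level of a gene. Whether these transcripts hold the missing end of Ctnnb1 was not tested.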

How the results depend on the processing

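All 9 members stayed uncalled under every alternative tried, although a mean FPKM of at least 5 left only 3 of them tested. The estimates changed sign in 3 cases: Tcf7 at 0.07 with the plain sum of transcripts, and Pygo1 at 0.03 with fragments per gene and at 0.0044 without Gde2KO replicate 3 (-0.10 to 0.0044 without 1 library). The 15 genes called became 4 with a pseudocount of 0.01, 1 with a mean FPKM of at least 5, 8 with fragments per gene, and 10 to 26 when a library was left out (26 without WT replicate 2, 25 without Gde2KO replicate 2 or 3). The 6 cassette exons called became 3 with an offset of 1 FPKM, 37 with an offset of 0.01 FPKM, 12 with included plus skipping FPKM of at least 3, and 0 to 17 when a library was left out, with 17 only without Gde2KO replicate 3; at an unadjusted p under 0.05 the main count in limma was 91. Replicate numbers did not pair the samples (correlations of deviations -0.0086, -0.041 and -0.153), and with the replicate block 2 genes and 0 exons were called (76 exons at an unadjusted p under 0.05). The Gdpd5 log2 difference was -2.31 (limma adjusted p = 0.155) with the replicate block and -1.45 (adjusted p = 0.0794) with the plain sum, and -2.38 to -2.19 without 1 library. The cause of these moves was not tested.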
